A study of Homo sapiens with 12 samples.

Results

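Luminal epithelial markers and tight junction genes were followed in MCF10A, a human mammary epithelial line that does not form tumours, across 4 groups of 3 bead arrays. The genes are CD24, MUC1, KIT, EPCAM and ELF3 on the luminal side and CLDN1, CLDN4, CLDN7, OCLN and TJP1 at the tight junction. The 10 genes, of 20045 with a symbol in the platform table, were found by symbol and had 18 of the 47224 probes. Total RNA was compared between a group labelled Ctr MCF10A.B2, called control below, and groups labelled ErbB2, Cas and Cas/ErbB2. All 4 are described in the labels as modified MCF10A cells. What MCF10A.B2 cells carry, how ErbB2 or Cas was raised or activated, and whether a group is 1 clone are not given in the sources used here. Array names begin with M- for control, M+ for ErbB2, C- for Cas and C+ for Cas/ErbB2. Whether M- and M+, or C- and C+, are states of the same cells is not stated. ErbB2 belongs to the EGF receptor family of tyrosine kinases, and p130Cas, encoded by BCAR1, is a scaffold protein of focal adhesions. The title of the series asks for invasive signatures that depend on both, and the design compares either alone with control and both together with each alone.

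Mammary ducts are lined by an inner luminal layer and an outer basal layer. Luminal cells carry surface proteins such as EPCAM, CD24 and MUC1, and are sealed to each other near their apical side by tight junctions. In these junctions claudins form the strands that close the space between cells, occludin runs along them, and the plaque protein ZO-1 (TJP1) ties them to actin. MCF10A cells are known for a largely basal character, and low claudins, EPCAM and CD24 are used to describe claudin-low tumours of the breast.

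Whole-series checks came first. Median raw signal lay between 171 and 202 on control arrays and between 477 and 623 on the others, and the number of probes detected (detection p under 0.05) was 19076 to 19416 against 12864 to 15984. Array names carry hybridization mark III for control replicates 1 and 2, II for control replicate 3 and none for the rest, so mark and group cannot be told apart in the comparisons with control. Correlation of normalized signal within a group was 0.963 to 0.992, with the lowest value in Cas/ErbB2. Of 9 genes listed for MCF10A identity, 6 had a probe (KRT5, KRT14, CDH1, LAMB3, ITGB4 and SFN), and these were detected on all 12 arrays. The brightest tested probe of ERBB2 read 9.75 to 9.99 in ErbB2 cells against 10.14 to 10.40 in control. The log2 difference was -0.37 ± 0.17 (SE, adjusted p = 0.125). In Cas/ErbB2 cells this probe was lower than in control (-1.17 ± 0.17, adjusted p = 1.97e-04). The brightest tested probe of BCAR1 read 9.10 to 9.55 in Cas cells against 9.41 to 10.05 in control (-0.31 ± 0.25, adjusted p = 0.377). Neither probe was higher in the groups labelled with its gene, and the groups are named below by their labels. Other probes of these genes were not used. Whether these probes read any introduced copy was not tested, and RNA does not show activation of the proteins.

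Of the 18 probes, 14 (8 genes) passed the filter of detection on at least 3 arrays and were tested. The single CLDN4 probe, both OCLN probes and KIT probe ILMN_2229379 were not detected on any array. CLDN4, a claudin of many simple epithelia, read between 6.12 and 7.69 on the 12 arrays, with detection p of at least 0.0714. The OCLN probes (occludin) read 6.07 to 6.93 with detection p of at least 0.408, and the KIT probe 6.11 to 7.13. These probes give no level for their genes in any group. Values are log2 signals after background correction and quantile normalization. Differences are between means of 3 arrays, with the standard error of a limma fit, and adjusted p is Benjamini-Hochberg over 19777 probes with calls under 0.05. No label states whether the 3 arrays of a group stand for separate cultures, and the spread behind each p-value is that of these arrays and may be technical. An exact permutation of 3 arrays against 3 cannot go below p = 0.1.

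Against control, EPCAM, CLDN7, MUC1 and 1 of the CD24 probes rose in ErbB2 cells, and EPCAM, CLDN7, CD24, MUC1 and ELF3 rose in Cas cells, by 1.49 to 2.33 times. Both comparisons use the same control arrays. In counts, 8 of the 14 probes rose and 0 fell with ErbB2 alone, where 31.8% of all tested probes were called, 13.6% higher and 18.3% lower. With Cas alone 10 rose and 0 fell (30.8% of all probes called, 13.1% higher and 17.7% lower). In Cas/ErbB2 against control 6 rose and 2 fell (46.4% called, 20.6% higher and 25.8% lower), and EPCAM and CLDN7 were among the rises. These counts hold KIT, which passed the filter only through ErbB2 and Cas arrays, where it was high, and so had to differ from control: without it 7, 9 and 5 of 13 probes rose. The median difference of the 14 was 0.62, 0.87 and 0.11 in these comparisons, beside 0.00, -0.01 and -0.02 for all tested probes. These directions hold for quantile-normalized arrays: with each array scaled to its median over all probes, the median of all tested probes fell to -1.21, -1.41 and -1.35, and the called rises turned into falls in every member but KIT, each fall smaller than that shift. With scaling over the probes detected on all 12 arrays, 10 member probes rose with ErbB2, 10 with Cas and 6 with both, and 1 fell with both, KIT included, where 46.9%, 44.2% and 55.2% of all probes were called. Probes of 1 gene are not independent, and in bulk RNA fewer cells of a type and less RNA per cell cannot be told apart.

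Among the groups other than control, the members that differed were lower in Cas/ErbB2 cells. Against Cas, 0 probes rose and 7 fell, those of CD24, MUC1, ELF3 and CLDN1, where 10.4% of all probes were called, 4.91% higher and 5.48% lower. Against ErbB2, 0 rose and 3 fell, all of MUC1, where 2.71% were called, 1.21% higher and 1.5% lower. The median difference of the 14 was -0.72 against Cas and -0.45 against ErbB2, beside -0.02 for all probes in both. Between ErbB2 and Cas cells limma called 0 of 14, under this and every alternative run (1.38% of all probes called, 0.971% higher and 0.41% lower), the lowest adjusted p was 0.215, and 2 probes had an unadjusted p under 0.05. Median scaling over all probes turned no call among these groups, but it left 3 calls against Cas (2.34% of all probes called) and 0 against ErbB2 (0.147%), and the scaling over detected probes left 1 against ErbB2 (1.4%). The count against ErbB2 was also 0 without ErbB2 replicate 1 (1.12% of all probes called), 1 without ErbB2 replicate 2 or Cas/ErbB2 replicate 1 or 2 (1.05% to 1.35%), and 0 in a fit of these 6 arrays alone (0.207%). Against Cas it was 4 without Cas replicate 1 (6.97%). The share of all probes called fell in each of these settings too.

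**Figure D1:**
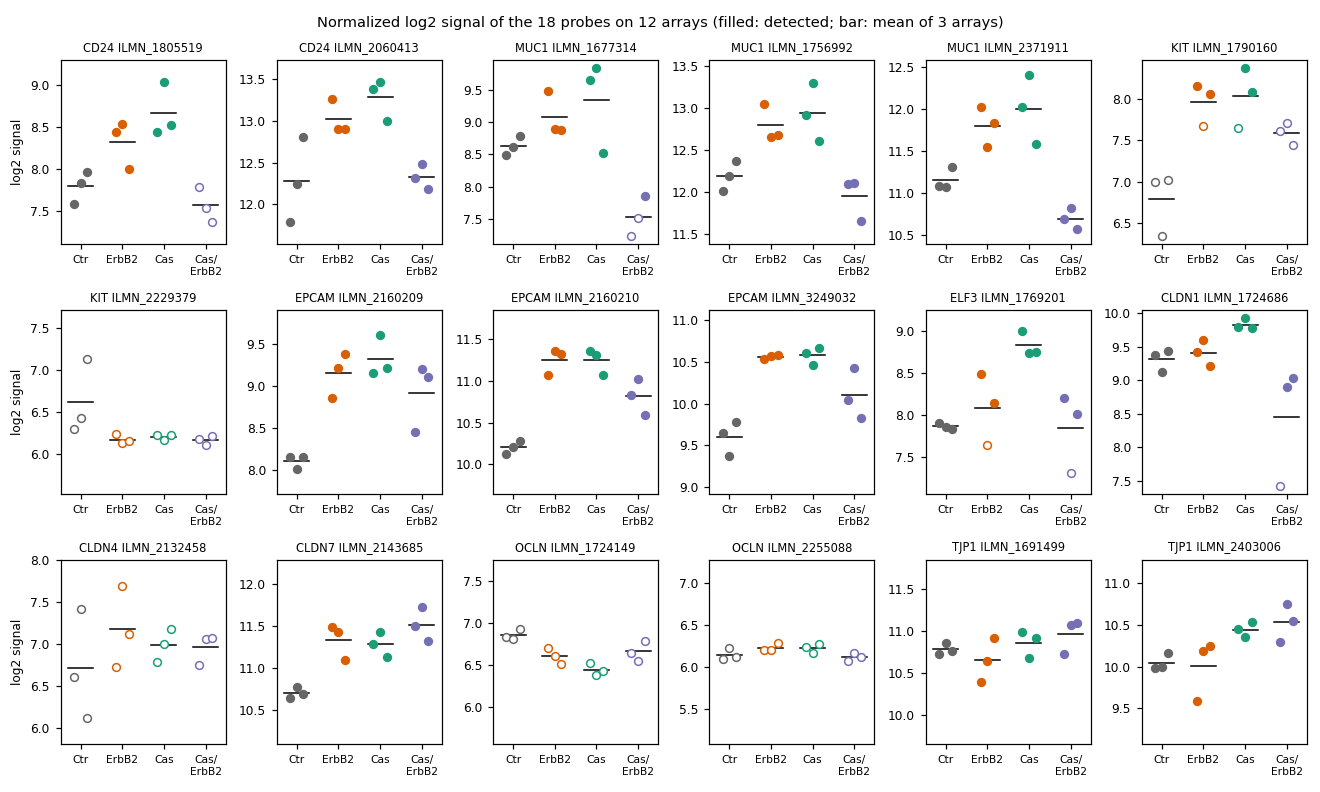
Normalized log2 signal of the 18 probes on the 12 arrays, with a panel for each probe, the groups on the horizontal axis (Ctr is the control), a point for each array and a bar at the mean of 3 arrays. Filled points were detected (p under 0.05). EPCAM and CLDN7 arrays of the ErbB2, Cas and Cas/ErbB2 groups lie above those of control, an order that turns under median scaling over all probes, and the MUC1 arrays of Cas/ErbB2 lie below those of ErbB2 and Cas.

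EPCAM, an adhesion molecule of simple epithelia that also binds claudin-7, had 3 probes, and all were detected on all 12 arrays. ILMN_2160210 read 10.13, 10.21 and 10.28 in control and 11.07, 11.36 and 11.32 in ErbB2 cells. It read 11.35, 11.31 and 11.07 in Cas cells and 10.83, 11.02 and 10.59 in Cas/ErbB2 cells. Control arrays were lowest without overlap, ErbB2 and Cas arrays overlapped each other, and Cas/ErbB2 arrays lay between. The rise was 1.04 ± 0.15 with ErbB2 (adjusted p = 1.73e-04), 1.04 ± 0.15 with Cas (1.92e-04) and 0.61 ± 0.15 with both (0.00503). The other EPCAM probes moved alike. ILMN_2160209 rose by 1.05 ± 0.21, 1.22 ± 0.21 and 0.82 ± 0.21, and ILMN_3249032 by 0.96 ± 0.16, 0.98 ± 0.16 and 0.50 ± 0.16. The last of these calls was lost without control replicate 1 (0.52) or 2 (0.38), without Cas/ErbB2 replicate 2 (0.33) and in a fit of these 6 arrays alone. Cas/ErbB2 arrays of ILMN_2160210 and ILMN_3249032 lay below all ErbB2 and all Cas arrays, with differences of -0.43 to -0.48 that did not pass (adjusted p = 0.0853 to 0.168).

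CD24, a small glycosylated protein held at the cell surface by a lipid anchor, had 2 probes. The bright one, ILMN_2060413, read 11.80, 12.25 and 12.81 in control and 13.25, 12.90 and 12.90 in ErbB2 cells. It read 13.38, 13.46 and 12.99 in Cas cells and 12.31, 12.48 and 12.18 in Cas/ErbB2 cells. Control was the most variable group, and the Cas/ErbB2 arrays fell within its range. The probe rose by 0.99 ± 0.23 with Cas (adjusted p = 0.00634) and by 0.73 ± 0.23 with ErbB2 (0.0284), and between Cas/ErbB2 and Cas the difference was -0.95 ± 0.23 (0.0189). The ErbB2 call was lost without control replicate 1 (0.49) or 2 (0.72), or ErbB2 replicate 1 (0.61) or 2 (0.79). The call against Cas was lost without Cas replicate 1 (-0.90) or 2 (-0.86) or Cas/ErbB2 replicate 1 (-0.94), and under median scaling over all probes (-0.93). ILMN_1805519 was detected on the 9 arrays of the other groups and on 0 of 3 Cas/ErbB2 arrays. It rose by 0.87 ± 0.20 with Cas (0.00589), did not pass with ErbB2 (0.53 ± 0.20, 0.0583), and in Cas/ErbB2 it was at least 1.70-fold lower than in Cas cells (adjusted p = 0.00337). For such a bound the mean of the detected group is set against the higher of the probe's own signal and the lowest detected signal on each undetected array. The limma call of ILMN_1805519 against Cas was lost under median scaling over all probes (adjusted p = 0.192). It was also lost with scaling over the probes detected on all 12 arrays (adjusted p = 0.276). Near-identical CD24 pseudogene copies exist in the human genome, and whether these probes also bind their transcripts was not tested.

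MUC1, a transmembrane mucin of the apical surface, was lower with both labels than with either one. ILMN_2371911 read 11.07, 11.06 and 11.30 in control and 12.02, 11.55 and 11.83 in ErbB2 cells. It read 12.02, 12.41 and 11.58 in Cas cells and 10.69, 10.82 and 10.56 in Cas/ErbB2 cells. The 3 Cas/ErbB2 arrays were the lowest of the 12, and ErbB2 and Cas arrays overlapped above control. The probe rose by 0.65 ± 0.20 with ErbB2 (adjusted p = 0.0248) and by 0.86 ± 0.20 with Cas (0.00636). The difference of Cas/ErbB2 was -1.31 ± 0.20 from Cas (9.81e-04), -1.11 ± 0.20 from ErbB2 (0.0122) and -0.46 ± 0.20 from control (0.0764). ILMN_1756992 read 11.66 to 12.11 in Cas/ErbB2 and 12.61 to 13.30 in ErbB2 and Cas cells, with 12.01 to 12.37 in control. Its order of groups was that of ILMN_2371911, with Cas/ErbB2 below Cas by -0.99 ± 0.20 (0.00653) and below ErbB2 by -0.84 ± 0.20 (0.0456). It rose by 0.60 ± 0.20 with ErbB2 (0.0360) and by 0.75 ± 0.20 with Cas (0.0133). The dim probe ILMN_1677314 was detected on 1 of 3 Cas/ErbB2 arrays, where it read 7.24 to 7.86 against 8.50 to 8.79 in control. In Cas/ErbB2 it was lower than in control (-1.09 ± 0.30, adjusted p = 0.0110), in ErbB2 (-1.54 ± 0.30, 0.0195) and in Cas cells (-1.80 ± 0.30, 0.00205). Its differences with ErbB2 and with Cas, 0.45 and 0.70, did not pass, unlike those of the other MUC1 probes.

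The MUC1 calls differed in how well they held. Between Cas/ErbB2 and Cas, ILMN_2371911 and ILMN_1677314 were called under all 26 and 25 alternatives run, and ILMN_1756992 missed the threshold only in a fit of these 6 arrays (adjusted p = 0.0507, within a range of 3.87e-04 to 0.0507). Between Cas/ErbB2 and ErbB2 the calls were lost under 3, 8 and 16 alternatives for ILMN_2371911, ILMN_1677314 and ILMN_1756992. Of single arrays, ErbB2 replicate 1 was needed for all 3 MUC1 probes, whose differences without it were -0.99, -1.37 and -0.71. With ErbB2 alone, the rise of ILMN_1756992 missed the threshold without any 1 control or ErbB2 array (0.47 to 0.70), and that of ILMN_2371911 without control replicate 1 (0.61) or 2 (0.61) or ErbB2 replicate 1 (0.54) or 3 (0.64). With Cas, the rise of ILMN_1756992 was lost without control replicate 1 (0.66) or 2 (0.76) or Cas replicate 2 (0.57). The fall of ILMN_1677314 against control was lost without control replicate 3 (-0.95).

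KIT, the receptor tyrosine kinase for stem cell factor and a mark of luminal progenitor cells, was near the limit of detection. ILMN_1790160 read 6.99, 6.35 and 7.03 in control and 8.15, 7.67 and 8.06 in ErbB2 cells. It read 7.65, 8.37 and 8.09 in Cas cells and 7.61, 7.71 and 7.44 in Cas/ErbB2 cells. Detection was reached on 2 of 3 ErbB2 and 2 of 3 Cas arrays and on none of control or Cas/ErbB2. KIT was at least 1.40-fold higher in ErbB2 than in control and at least 1.47-fold higher in Cas, a description without a test, since the filter kept this probe for being high there. Between Cas/ErbB2 and control no fold is given because the probe was not detected in either group.

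ELF3, an ETS transcription factor of differentiating epithelia, was highest in Cas cells. Its probe read 7.91, 7.85 and 7.83 in control and 8.48, 7.64 and 8.14 in ErbB2 cells. It read 9.0, 8.73 and 8.75 in Cas cells and 8.20, 7.31 and 8.01 in Cas/ErbB2 cells. No other array reached the Cas values, while control, ErbB2 and Cas/ErbB2 overlapped, and 1 ErbB2 and 1 Cas/ErbB2 array were not detected. ELF3 rose by 0.96 ± 0.24 with Cas (adjusted p = 0.00955), by 1.95 times, and its difference between Cas/ErbB2 and Cas was -0.99 ± 0.24 (0.0192). The last call was lost without Cas replicate 1 (-0.93) or Cas/ErbB2 replicate 2 (-0.75), and in fits of these 6 arrays or of the 9 arrays without control. It was also lost under median scaling over all probes (-0.67) and over the probes detected on all 12 arrays (-0.66). The difference with ErbB2 was 0.22 ± 0.24 (0.504), with a 95% interval from -0.30 to 0.74.

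CLDN7, a claudin found along the sides of epithelial cells as well as at the junction, was detected on all 12 arrays. It read 10.65, 10.77 and 10.70 in control and 11.49, 11.44 and 11.10 in ErbB2 cells. It read 11.29, 11.43 and 11.14 in Cas cells and 11.51, 11.74 and 11.32 in Cas/ErbB2 cells. Every array of the ErbB2, Cas and Cas/ErbB2 groups lay above every control array, and those groups overlapped each other. The rise was 0.64 ± 0.15 with ErbB2 (adjusted p = 0.00715), 0.58 ± 0.15 with Cas (0.0123) and 0.81 ± 0.15 with both (9.76e-04). The Cas call was lost without control replicate 1 (0.55) or 3 (0.58) or Cas replicate 2 (0.51). Between Cas/ErbB2 and Cas the difference was 0.23 ± 0.15 (0.397), with a 95% interval from -0.09 to 0.56.

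CLDN1, the claudin that seals epidermis and is found in basal-type breast cells, differed most in 1 array. It read 9.38, 9.13 and 9.43 in control and 9.43, 9.59 and 9.22 in ErbB2 cells. It read 9.79, 9.93 and 9.77 in Cas cells and 7.43, 8.90 and 9.03 in Cas/ErbB2 cells. The first Cas/ErbB2 array was not detected (detection p above 0.05), and the other arrays of that group lay under all arrays of the other groups. CLDN1 was lower in Cas/ErbB2 than in Cas by -1.38 ± 0.32 (adjusted p = 0.0168) and than in control by -0.86 ± 0.32 (0.0461). Without Cas/ErbB2 replicate 1 the difference from control was -0.35 and lost its call (0.0976, within a range of 3.72e-05 to 0.119), as it did without any 1 array of control, ErbB2 or Cas (-0.92 to -0.77). Without that array the difference from Cas was -0.87 and kept its call. The call against Cas was lost without Cas replicate 1 (-1.41) or 2 (-1.34), in a fit of these 6 arrays alone and under median scaling over all probes (-1.08).

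TJP1, which encodes the scaffold ZO-1, had 2 probes detected on all 12 arrays. ILMN_1691499 read 10.73 to 10.86 in control, 10.39 to 10.92 in ErbB2, 10.68 to 10.99 in Cas and 10.72 to 11.10 in Cas/ErbB2 cells, and no comparison passed. Its difference between Cas/ErbB2 and control was 0.18 ± 0.16 with a 95% interval from -0.17 to 0.53. ILMN_2403006 read 9.98 to 10.16 in control and 10.29, 10.75 and 10.54 in Cas/ErbB2 cells, without overlap. This probe rose by 0.48 ± 0.18 (adjusted p = 0.0431), a call lost without any 1 of the control arrays, any 1 of the Cas arrays, or Cas/ErbB2 replicate 2 or 3 (0.37 to 0.54). The call was thus made for 1 of the 2 TJP1 probes, whose signals correlated (r = 0.83 over 12 arrays, a description).

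**Figure D2:**
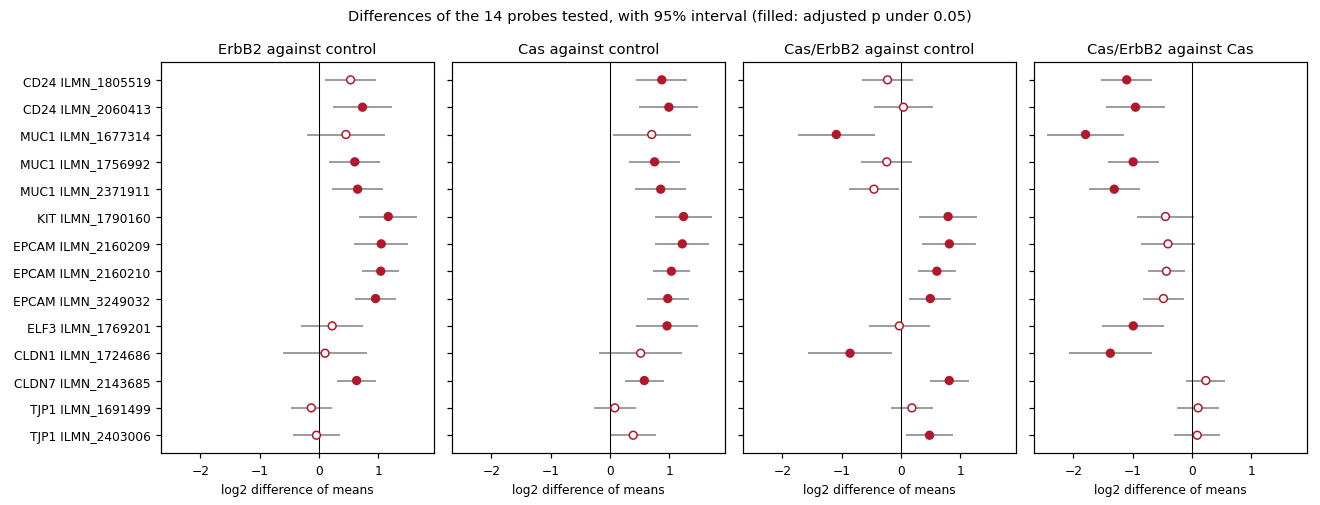
Log2 differences (horizontal axis) of the 14 tested probes in 4 comparisons, with 95% intervals from the limma fit, filled where adjusted p was under 0.05. Against control most probes with ErbB2 or Cas alone lie right of 0, an order that turns under median scaling over all probes except for KIT, and 7 lie left of 0 with a call between Cas/ErbB2 and Cas.

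The change that went with ErbB2 was set between cells with and without the Cas label, as the difference Cas/ErbB2 minus Cas less the difference ErbB2 minus control. For 11 of the 14 probes this term was below 0 with adjusted p under 0.05, and for 0 above, where 15.9% of all probes were called, 10.5% higher and 5.32% lower. KIT and CD24 ILMN_1805519 are among the 11, but their terms use groups with no detected array and are no measured sizes; over the other 12 probes 9 were called, all below 0. The median of the 14 was -1.48, and that of the 12 was -1.46, beside -0.02 for all tested probes. MUC1 ILMN_2371911 changed by 0.65 without Cas and by -1.31 with it, a term of -1.96 ± 0.28 (adjusted p = 5.68e-04). CD24 ILMN_2060413 changed by 0.73 and -0.95, a term of -1.69 ± 0.32 (0.00362). EPCAM ILMN_2160210 changed by 1.04 and -0.43, a term of -1.47 ± 0.21 (5.12e-04). In these probes the sign of the ErbB2 difference was opposite in the presence of the Cas label after quantile normalization. For EPCAM the difference among Cas cells did not pass on its own. Under median scaling over all probes both differences of each of these probes were below 0. Without and with Cas they were -0.71 and -1.30 for MUC1, -0.55 and -0.93 for CD24, and -0.38 and -0.41 for EPCAM. ELF3 and CLDN1 had terms of -1.21 ± 0.34 (0.0285) and -1.48 ± 0.46 (0.0463). CLDN7 (-0.40 ± 0.21, 0.237) and the TJP1 probes (0.23 ± 0.23 and 0.13 ± 0.25) did not pass. The term contains the control arrays: under median scaling over all probes, where the median term of all tested probes was 1.20, 0 of these 9 kept their call (68.3% of all probes called), the terms of EPCAM ILMN_3249032 and CLDN1 turned to 0.03 and 0.29, and the terms of CLDN7 and TJP1 were called above 0. The ELF3 call was also lost without any 1 control array (-1.18 to -1.14), without ErbB2 replicate 1 (-1.03) or 3 (-1.20) or Cas replicate 1 (-1.16), and that of CLDN1 without any 1 control, ErbB2 or Cas array (-1.58 to -1.36).

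**Figure D3:**
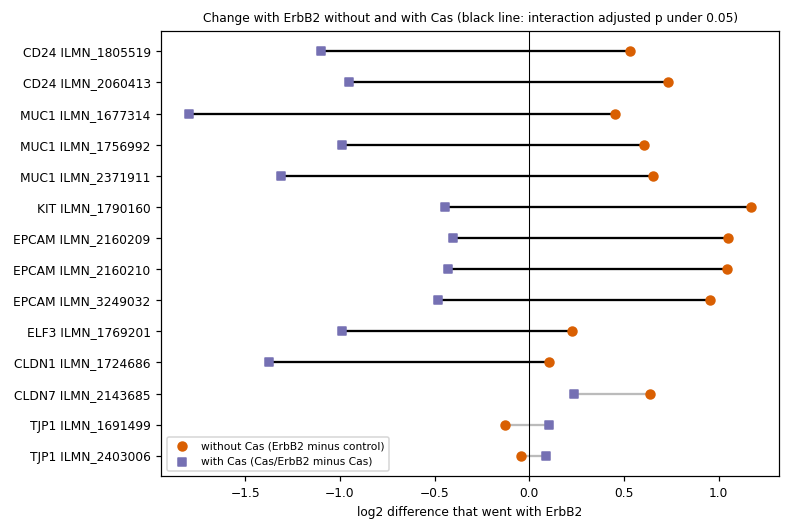
Log2 difference that went with ErbB2 (horizontal axis) for each tested probe, without Cas (circles, ErbB2 minus control) and with Cas (squares, Cas/ErbB2 minus Cas). Black lines mark the 11 probes whose 2 differences differed from each other at adjusted p under 0.05, a call that under median scaling over all probes none of them kept but KIT, which with CD24 ILMN_1805519 has a group with no detected array.

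Claudins, occludin and MUC1 are known to be repressed in epithelial cells by zinc finger factors of the SNAI and ZEB families, which bind the E-box CACCTG. Among 15 listed repressors and mesenchymal genes, 9 were tested, and SNAI1, SNAI3, ZEB1, TGFB1 and TGFB2 were not detected on any array. SNAI2 read 13.80, 13.78 and 13.73 in Cas/ErbB2 cells, above 13.18 to 13.30 in ErbB2, 12.92 to 12.94 in Cas and 13.05 to 13.23 in control. It was higher in Cas/ErbB2 than in Cas by 0.84 ± 0.11 (adjusted p = 3.71e-04), and than in ErbB2 by 0.51 ± 0.11 (0.0313), the last lost under 11 of 27 alternatives, among them without any 1 ErbB2 array (0.47 to 0.53), control replicate 2 or 3, or Cas/ErbB2 replicate 1 or 2. Its difference from control, 0.60 ± 0.11 (8.70e-04), turned to -0.92 under median scaling over all probes. TWIST2, a basic helix-loop-helix factor, rose with ErbB2 by 0.92, with Cas by 0.84 and with both by 1.42, and these rises turned to falls under median scaling over all probes. Against control 31.8% of all tested probes were called with ErbB2, 30.8% with Cas and 46.4% with both. Of the 9 tested here, 1 rose and 4 fell with ErbB2, 1 rose and 2 fell with Cas, and 2 rose and 3 fell with both. Among the falls were CDH2 and KLF8, which passed the filter through control arrays only and of which KLF8 turned under scaling over the probes detected on all 12 arrays. In Cas/ErbB2 2 of the 9 were higher and 0 lower than in Cas, where 10.4% of all probes were called. Against ErbB2 1 was higher and 0 lower (2.71% of all probes called). Whether SNAI2 or any of these genes has a part in the members' levels was not tested.

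Promoter windows are shown for MUC1 and CLDN1, which were lower in Cas/ErbB2 than in Cas cells, and for CLDN7, which rose against control, a choice made after their values were seen. Where a gene had several windows, the one with the most motifs was printed, so the motif counts shown are the highest. The windows run from 250 bases before to 50 after the start in RefSeq (GRCh38.p14), read 5′ to 3′ on the gene's strand, and capitals mark CACCTG or its reverse complement CAGGTG.
MUC1 chr1:155192860-155193159, minus strand: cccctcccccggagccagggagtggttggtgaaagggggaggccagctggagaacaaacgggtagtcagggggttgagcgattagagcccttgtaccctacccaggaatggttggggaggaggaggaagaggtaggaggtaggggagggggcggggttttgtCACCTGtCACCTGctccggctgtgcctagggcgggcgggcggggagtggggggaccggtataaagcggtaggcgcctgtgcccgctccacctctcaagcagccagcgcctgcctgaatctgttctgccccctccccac
CLDN1 chr3:190322397-190322696, minus strand: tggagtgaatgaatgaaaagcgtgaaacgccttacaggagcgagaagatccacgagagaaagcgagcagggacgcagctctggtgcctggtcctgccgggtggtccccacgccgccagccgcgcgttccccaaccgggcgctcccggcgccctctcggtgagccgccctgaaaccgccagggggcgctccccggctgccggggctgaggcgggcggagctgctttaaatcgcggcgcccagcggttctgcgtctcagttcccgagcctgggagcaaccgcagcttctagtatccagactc
CLDN7 chr17:7262429-7262728, minus strand: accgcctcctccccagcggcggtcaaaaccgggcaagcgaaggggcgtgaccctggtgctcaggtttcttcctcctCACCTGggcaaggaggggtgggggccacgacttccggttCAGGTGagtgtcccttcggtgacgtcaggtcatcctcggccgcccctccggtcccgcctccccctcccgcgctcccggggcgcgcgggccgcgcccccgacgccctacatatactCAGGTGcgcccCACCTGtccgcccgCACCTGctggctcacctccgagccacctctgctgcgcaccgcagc
The MUC1 window holds 2 motifs, at -88 and -81 from the start, the CLDN7 window shown holds 5, at -174, -135, -20, -9 and 6, and the CLDN1 window holds none. CLDN7 has a second window in RefSeq, at the outermost start of the gene, which holds 0. MUC1 has a second one with 2, most of whose bases are those shown. Of 35116 windows of 300 bases, 20.6% held at least 1 motif and 3.49% at least 2, counting both strands. Over the members, 9 of 10 genes had a window (EPCAM had none in the table), and 8 of their 17 windows, in 6 genes, held the motif. A match is a description of letters and no site of binding.

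Other tight junction genes were counted beside the members. Of 42 other tight junction genes 37 had a probe, 18 were tested and 13 were not detected on any array, among them CLDN2, CLDN3, CLDN5, CLDN6, CLDN9, CLDN19 and CLDN22, the adhesion molecules JAM2 and JAM3, and the plaque proteins CGN and CGNL1. Among all tested probes 31.8% were called with ErbB2, 30.8% with Cas and 46.4% with both. With ErbB2 0 of the 18 rose and 7 fell, with Cas 4 rose and 8 fell, and with both 4 rose and 7 fell. The falls include CLDN15, CLDN23, MARVELD3 and PARD3, which were detected on control arrays only and so had to differ. Over the 9 genes detected on all 12 arrays, 0 rose and 1 fell with ErbB2, 3 and 2 with Cas, and 2 and 1 with both. Of all probes so detected 26.8%, 20.4% and 41.2% were called. With Cas the rises were LSR of tricellular contacts (0.95 ± 0.30), the adhesion molecule CXADR (0.76 ± 0.20), the polarity protein CRB3 (0.68 ± 0.17) and CLDN8 (0.62 ± 0.22), and under median scaling over all probes all but CLDN8 turned to falls. Unlike the others, CLDN8 was not detected on all 12 arrays, and its difference ranged from 0.34 to 1.99 over the alternatives run. Of these calls LSR and CLDN8 were lost without any 1 control array (0.91 to 0.99 and 0.53 to 0.68), CXADR without control replicate 1 (0.65) or 2 (0.78) or Cas replicate 2 (0.65), and CRB3 without control replicate 3 (0.60).

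Between Cas/ErbB2 and Cas 3 of the 18 differed, where 10.4% of all probes were called. CXADR read 8.74, 8.52 and 9.05 in Cas/ErbB2 against 9.59, 9.92 and 9.58 in Cas cells (-0.93 ± 0.20, adjusted p = 0.010), and CRB3 was lower as well (-0.63 ± 0.17, 0.0325), a call lost without any 1 Cas array (-0.66 to -0.59) or Cas/ErbB2 replicate 1 (-0.54). CLDN12, a claudin that lacks the usual anchor to ZO-1, read 9.66, 10.11 and 10.65 against 8.81, 8.85 and 9.09 and was higher (1.23 ± 0.21, 0.00236). In this comparison CLDN1 was lower, CLDN12 was higher and CLDN7 did not pass. Between Cas/ErbB2 and ErbB2, and between ErbB2 and Cas, limma called 0 of the 18 (2.71% and 1.38% of all probes called).

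**Figure D4:**
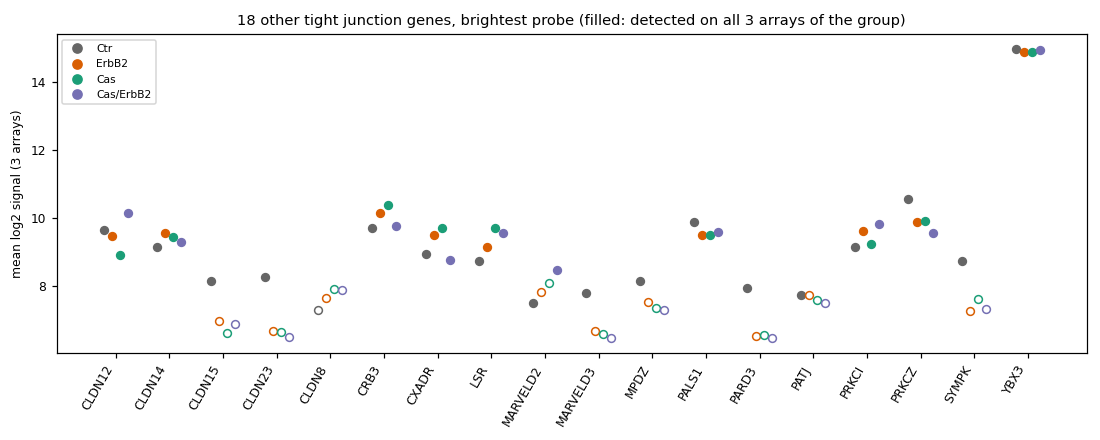
Mean log2 signal (vertical axis, 3 arrays) of the brightest probe of each of the 18 other tight junction genes in the 4 groups, in alphabetical order. Points are filled where all 3 arrays of the group were detected, and CLDN15, CLDN23, MARVELD3 and PARD3 are filled in control only (levels of different probes are not comparable).

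Other luminal genes were counted in the same way. Of 30 listed, 28 had a probe and 13 were tested, and PGR, FOXA1, PRLR, AGR2, TFF1, TFF3, ELF5, CYP24A1, GRHL2, OVOL1 and PROM1 were not detected on any array. With ErbB2 3 rose and 2 fell, with Cas 3 rose and 0 fell, and with both 4 rose and 3 fell. Of all tested probes 31.8%, 30.8% and 46.4% were called in these comparisons. XBP1, a factor of secretory differentiation and of the unfolded protein response, rose by 1.26 ± 0.15, 0.54 ± 0.15 and 2.17 ± 0.15, with 12.95, 13.16 and 12.95 in Cas/ErbB2 against 10.82, 10.88 and 10.86 in control. ALDH1A3, a retinaldehyde dehydrogenase of luminal progenitors, rose by 0.93 ± 0.25, 1.85 ± 0.25 and 1.23 ± 0.25. KRT8 fell by 0.89 with ErbB2 and by 0.81 with both, whereas its keratin partner KRT18 rose by 0.88 with Cas and by 0.86 with both. The rises of XBP1 with Cas or ErbB2, of ALDH1A3 with ErbB2 or both and of KRT18 turned under median scaling over all probes. The XBP1 call with Cas was lost without any 1 control array (0.53 to 0.56) or Cas replicate 2 (0.39), that of ALDH1A3 with ErbB2 without control replicate 2 (0.63) or ErbB2 replicate 2 (0.87) or 3 (0.79), and that of KRT18 with Cas without control replicate 1 (0.89) or 2 (0.76) or Cas replicate 2 (0.85) or 3 (0.82). That of KRT18 with both was lost without control replicate 2 (0.75) or Cas/ErbB2 replicate 1 (0.69) or 2 (0.71).

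ST14, the membrane protease matriptase, was lower in Cas/ErbB2 cells than in the other groups. It read 8.41, 8.55 and 8.53 there, against 9.50 to 9.72 in ErbB2, 9.70 to 10.26 in Cas and 10.02 to 10.15 in control. The difference was -1.57 ± 0.16 from Cas (adjusted p = 4.17e-05), -1.14 ± 0.16 from ErbB2 (0.00297) and -1.57 ± 0.16 from control (7.81e-06). XBP1 went the other way, with 12.95 to 13.16 in Cas/ErbB2 against 11.21 to 11.70 in Cas and 11.94 to 12.28 in ErbB2 cells. Of the 13 luminal genes tested, 1 was higher and 1 lower in Cas/ErbB2 than in Cas, where 10.4% of all probes were called. Against ErbB2 1 was higher and 1 lower as well (2.71% of all probes called). Among 14 tested basal genes, LAMB3, a chain of laminin-332, rose by 0.99 with ErbB2 (-0.25 under median scaling over all probes) and by 1.87 with both, TAGLN fell by 1.22 and 2.31, and EGFR fell by 1.09, by 1.03 with Cas and by 1.20 with both. In all 3 rose and 4 fell with ErbB2, 1 and 2 with Cas, and 4 and 6 with both, where 31.8%, 30.8% and 46.4% of all tested probes were called.

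Markers of fibroblasts, endothelium and leukocytes were checked beside these results. Of 17 genes 9 were not detected on any array (COL3A1, PDGFRA, PDGFRB, CDH5, VWF, KDR, PTPRC, CD3E and LYZ). The summed linear signal of the other 8 was 6262 to 7637 in control, 6307 to 7247 in ErbB2, 6074 to 7056 in Cas and 8417 to 10584 in Cas/ErbB2 cells. Its range was highest in Cas/ErbB2. CD68, a lysosomal protein of many cell types and 1 of the 8, read 12.47 to 12.94 in Cas/ErbB2 cells. It read 11.22 to 11.59 in control, 11.76 to 11.96 in ErbB2 and 11.11 to 11.53 in Cas cells. The sum was not taken without CD68. After quantile normalization, 3 of the 8 genes rose and 1 fell with ErbB2, 3 and 1 with Cas, and 5 and 1 with both. Of all tested probes 31.8%, 30.8% and 46.4% were called. Over the 4 genes detected on all 12 arrays, 4 rose and 0 fell with both, where 41.2% of probes so detected were called. In Cas/ErbB2 1 of the 8 was higher and 1 lower than in Cas (10.4% of all probes called). Against ErbB2 it was 1 and 1 too (2.71%). In Cas/ErbB2 CD68 rose against control by 1.20 (-0.34 under median scaling over all probes) and DCN fell by 2.95. The part of these genes in the members' differences was not tested.

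The genes whose pattern was most like each member were taken from 6554 genes by Pearson correlation over the 12 arrays, as a description with no test, since the arrays of a group share their level. For EPCAM ILMN_2160210 these were MAX (r = 0.98), POP4 (0.95) and CCNL2 (0.94). For CLDN7 they were MAP7D3 (0.96), EHBP1L1 (0.95) and GRB7 (0.94), for KIT ANKRD9 (0.93), SPRR2D (0.93) and SRM (0.92). For CD24 ILMN_2060413 they were SNORD104 (0.93), MCM5 (0.90) and DCAF4 (0.89), and for MUC1 ILMN_1756992 SYNCRIP (0.90), DEAF1 (0.89) and IFITM2 (0.88). VDAC3 came first for CLDN1 (0.91), SCO2 for ELF3 (0.87) and GNA13 for TJP1 ILMN_1691499 (0.87). Probes of 1 gene correlated at 0.85 to 0.97 for MUC1, 0.84 to 0.94 for EPCAM, 0.87 for CD24 and 0.83 for TJP1.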

How the data were processed

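Total RNA of 12 samples was extracted with trizol and labelled with biotin for Illumina bead arrays, per the labels' protocols, which name Ref-8v2 BeadChips. Whether the 47224 probes of the table are of that design was not tested. The deposited table holds mean bead signals (intensity on a linear scale, with medians that differ between arrays) and detection p-values, per the file headers; 0 other sample columns were left out. The authors' value table of processed intensities, already normalized between arrays, was used as an alternative only. Software and background steps of the submitters were not given in the sources used here. Depth does not apply to arrays, and their number limits the precision.

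Signals were corrected with neqc of limma 3.58.1 in R 4.3.3 (background from detection p, offset 16; 770 negative controls implied), then quantile normalized, as log2 values. A probe was kept where 3 or more arrays had detection p under 0.05. A model of 4 group means was fitted to 12 arrays for each single probe, with eBayes and Benjamini-Hochberg adjustment in each of 7 comparisons. Of all probes 30111 had 1 gene symbol, 8 had several and 17105 none, and 30072 were updated by gene ID. All member probes are described. Genes of the other lists are their brightest kept probe, and up to 4 called genes of a list, those not detected, and the 3 most correlated genes of each member are named (LSR, CXADR, CRB3 and CLDN8 with Cas, SNAI2, KRT8 and KRT18 with both, CD68 and DCN were chosen after their values were seen). The members and lists were chosen with earlier results of these data known. On simulated arrays for ErbB2 against control (19777 probes) the fit recovered 12% of changes of 0.5, 60% of 1, 96% of 2 and 100% of 3, with 5 false among 139 calls. Only 50 probes were changed at each size, with independent noise, whereas 31.8% of probes were called in the data. The adjusted threshold thus differs, and these rates do not carry over to the data. Alternatives covered background correction, scaling, filters, 1 item a gene, blocks, moderation, array weights, subsets of arrays and leaving out each array. Figures were drawn with matplotlib 3.10.9 in Python 3.11.15.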

Additional observations from a re-analysis of the deposited data

Results flagged for a closer look

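For 9 probes of 5 members that were detected in every group the change with ErbB2 differed between cells with and without the Cas label, by the interaction term of the limma fit with Benjamini-Hochberg adjustment over 19777 probes and 3 arrays in each of 4 groups. For MUC1 the term was -2.25 (adjusted p = 0.00332) for ILMN_1677314, -1.60 (adjusted p = 0.00210) for ILMN_1756992 and -1.96 (adjusted p = 5.68e-04) for ILMN_2371911. For CD24 ILMN_2060413 it was -1.69 (adjusted p = 0.00362). For EPCAM it was -1.45 (adjusted p = 0.00540) for ILMN_2160209, -1.47 (adjusted p = 5.12e-04) for ILMN_2160210 and -1.44 (adjusted p = 0.00110) for ILMN_3249032. For ELF3 ILMN_1769201 it was -1.21 (adjusted p = 0.0285) and for CLDN1 ILMN_1724686 -1.48 (adjusted p = 0.0463). The fit also gave -1.63 for CD24 ILMN_1805519, not detected on any Cas/ErbB2 array, and -1.62 for KIT ILMN_1790160, not detected on any control or Cas/ErbB2 array, and these are no measured sizes. In the 9, after quantile normalization, the difference was above 0 without Cas, from 0.10 (CLDN1) to 1.05 (EPCAM). It was below 0 with Cas, from -1.80 (MUC1) to -0.40 (EPCAM). Under median scaling over all probes the difference without Cas was below 0 as well in all 9, from -1.37 (CLDN1) to -0.15 (EPCAM). None of the 9 terms kept its call there, where 68.3% of all probes were called. The call of EPCAM ILMN_2160209 was lost without control replicate 2 (-1.38), that of ELF3 without any 1 control array, ErbB2 replicate 1 or 3 or Cas replicate 1 (-1.20 to -1.03), and that of CLDN1 without any 1 control, ErbB2 or Cas array (-1.58 to -1.36). The terms rest on the control arrays, whose raw signal and hybridization marks differ from the rest, and the part of these in the terms was not tested.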

How the results depend on the processing

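Of 47 called differences of member probes, 26 kept their call and direction under all alternatives other than median scaling over all probes, and 5 under all, of up to 27 (3 of KIT, whose calls the filter favours, and 2 of MUC1). Normexp (offset 50), no background correction and the authors' processed intensities gave the same member counts. The detection filter and the number of arrays limit what can be seen for KIT, ELF3 and CLDN1, near the limit of detection in part of the arrays, and the control arrays' lower raw signal cannot be told apart from their group. The labels do not say what a shared replicate number means. Deviations of same-numbered arrays correlated at -0.088 to 0.19 (mean 0.068; 8 of 18 pairs over 0.1) and those of other arrays at -0.23 to 0.095 (mean -0.034; 0 of 36), and 8 of 12 arrays correlated best with an array of their own number. As not every same-numbered pair was over 0.1, the numbers were not taken to pair the samples, although the data hint at it in part. That rule is no test of pairing. Array names also share the same digits for a replicate number in every group, and what they mean is not stated. The replicate block moved the count in Cas/ErbB2 against ErbB2 from 3 to 2 (2.39% of all probes called) and that of the interaction from 11 to 10 (16.6%). It ended the call of MUC1 ILMN_1756992 in Cas/ErbB2 against ErbB2 (-0.84, adjusted p = 0.0576) and of the CLDN1 interaction (-1.48, 0.0508), and of the other genes named that of CLDN8 with Cas (0.62). The hybridization mark as a random block had a consensus correlation of -0.0953.

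Median scaling over all probes turned these values. With ErbB2 against control it gave -0.55 for CD24 ILMN_2060413, -0.98, -0.69 and -0.71 for the MUC1 probes, -0.15, -0.38 and -0.51 for EPCAM, -0.60 for ELF3, -1.37 for CLDN1, -0.75 for CLDN7, -0.25 for LAMB3, -0.56 for TWIST2, -0.12 for XBP1 and -0.54 for ALDH1A3. With Cas it gave -0.062 and -0.53 for CD24, -0.90, -0.78 and -0.74 for MUC1, -0.14, -0.62 and -0.69 for EPCAM, -0.11 for ELF3, -1.14 for CLDN1, -1.04 for CLDN7, -1.52 and -1.24 for TJP1, -0.031 for OXTR, -0.68 for LSR, -0.90 for CXADR, -0.97 for CRB3, -0.82 for TWIST2, -0.67 for KRT18 and -1.06 for XBP1. With both it gave -1.46 for CD24 ILMN_2060413, -0.46, -1.03 and -1.17 for EPCAM, -0.78 for CLDN7, -1.42 and -1.16 for TJP1, -0.53 for ITGA6, -0.92 for SNAI2, -0.73 for KRT18, -0.34 for CD68, -0.27 for TWIST2 and -0.43 for ALDH1A3. In the interaction it gave 0.027 for EPCAM ILMN_3249032, 0.29 for CLDN1, 1.01 for CLDN7, 0.48 for ST14 and 0.13 for CXADR. It moved the share of lower calls among all probes from 57.3% to 94.2% with ErbB2, 57.5% to 94.1% with Cas, 55.7% to 93.1% with both and 33.5% to 3.08% in the interaction. Member counts were then 13 in Cas/ErbB2 against control, 0 against ErbB2, 3 against Cas and 4 in the interaction, where 80.4%, 0.147%, 2.34% and 68.3% of all probes were called. Median scaling over probes detected on all 12 arrays, chosen after seeing the data, moved the median of all probes to 0.20, 0.19 and 0.27 against control and -0.21 in the interaction. It turned KLF8 with ErbB2 (0.23), Cas (0.56), both (0.58) and in the interaction (-0.21), and ELF3 in Cas/ErbB2 against control (0.84), and it left 1 call against ErbB2 (1.4% of all probes).

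Other counts moved in settings with fewer items or arrays, and why they moved was not tested. Detection on all 12 arrays gave 6 calls in the interaction and 5 in Cas/ErbB2 against control, of 9 tested (9.13% and 44.2% of all probes). With 1 item a gene, of 8 tested, there were 5 with ErbB2, 6 with Cas, 4 with both, 1 and 4 in Cas/ErbB2 against ErbB2 and against Cas, and 5 in the interaction. In the same order 30.6%, 29.3%, 45.5%, 2.75%, 10.6% and 14.2% of all items were called. The arrays compared alone gave 0 against ErbB2 (0.207% of all probes called) and 4 against Cas (4.91%). The 9 arrays without control, chosen after seeing the data, gave 1 against ErbB2 (1.12%). Leaving out 1 array gave 5 to 9 calls with ErbB2, 8 to 11 with Cas, 4 to 7 with both, 0 to 4 in Cas/ErbB2 against ErbB2, 4 to 7 against Cas, 0 to 0 between ErbB2 and Cas and 8 to 11 in the interaction. The share of all probes called then ranged from 13.7% to 39.3% with ErbB2, 12.3% to 37.3% with Cas and 31.1% to 52.6% with both. It was 1.05% to 11.8% against ErbB2, 6.97% to 16.1% against Cas, 0.645% to 2.62% between ErbB2 and Cas and 2.35% to 18.6% in the interaction. The count with ErbB2 was 5 without control replicate 1 (17.2% of all probes called) or 2 (13.7%) or ErbB2 replicate 1 (26.1%). That with both was 5 without control replicate 1 (32.1%) or 3 (32.9%) and 4 without control replicate 2 (31.1%).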
